A study of Homo sapiens with 22 samples.

Results

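Single fibroblasts undergoing reprogramming with messenger RNA (mRNA) were divided by the number of AES transcripts they held. Within each of the 9 libraries of D3, D5 and D7, kept cells were ranked by AES CPM (counts of AES per 1000000 counts of the cell), and the top 25% (AES-high cells) were set against the bottom 25% (AES-low cells). This gave 3364 cells on each side, 6728 of the 13472 kept cells of these days and of the 41975 kept cells in the series. Unique molecular identifiers (UMIs, each marking 1 captured RNA molecule) were summed per pool and side, which gave 6 pools on each side, paired by pool. The cells were BJ cells, an established line of human foreskin fibroblasts, cultured in microfluidic chambers. They received non-modified mRNAs for POU5F1, SOX2, KLF4, MYC, LIN28 and NANOG once a day from day 1 to day 8 in Pluriton medium, so that cells of D3, D5 and D7 had received the doses given before their harvest. AES-high and AES-low cells of a pool shared these treatments, the day and the library. D0 cells, harvested before any transfection, and D9 cells, harvested after the last one and with the medium changed to StemMACS iPSBrew XF from day 9, were ranked in the same way, as background and as samples that did not choose the cells. Each day had 2 pools, A and B, each made of cells from 4 chips that were frozen and thawed before sequencing, so p-values measure the spread between pools of chips of a single cell line.

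AES, now named TLE5 (ENSG00000104964, chr19:3052910-3063107, minus strand, GRCh38), encodes a short relative of the TLE (Groucho) corepressors. Reprogramming with mRNA relies on repeated delivery of short-lived transcripts into the cytoplasm, where RNA sensors can detect foreign RNA. MYC is known to raise ribosome production and growth, LIN28A binds RNA and blocks let-7 microRNAs, and the loss of fibroblast genes is known to precede the gain of pluripotency genes. Neither the sample labels nor the study's methods link AES to the delivered RNAs. In these counts, RNA from a cell's own gene and delivered RNA that aligns to that gene cannot be told apart, for AES and for the 6 transfected factors alike.

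The cells were chosen by their measured AES values, which are therefore given as a description. In D0, the median AES-low cell held 51.76 CPM in pool A and 68.28 CPM in pool B, and the median AES-high cell 233.7 and 254.3 CPM. In the pools of D3, D5 and D7, the median AES-low cell held from 528.6 CPM (D5A) to 2583 CPM (D7A), and the median AES-high cell from 10921 CPM (D3B) to 23012 CPM (D5A). The median AES-low cell of each transfected pool was thus above the median AES-high cell of D0. The lowest single cell of a transfected pool ranged from 33.9 CPM (D7B) to 1773 CPM (D7A), against 0 CPM in both D0 pools. Whether free RNA shared by the cells of a library adds to these levels was not tested. The ratio of the medians ran from 5.77 in D7A to 43.5 in D5A, against 4.52 and 3.73 in D0. AES took 1.82% (D3B) to 3.79% (D5A) of the UMIs of AES-high cells. The limits fell in a continuous range: in the D7A library the last cell inside the AES-low group had 3191 CPM and the next 3192 CPM, and the last cell below the AES-high group had 9286 CPM and the first inside it 9287 CPM. Of the kept cells of these days, 87 exceeded 100000 CPM, 10% of their UMIs. For all other genes, CPM are relative to a total without AES.

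**Figure D1:**
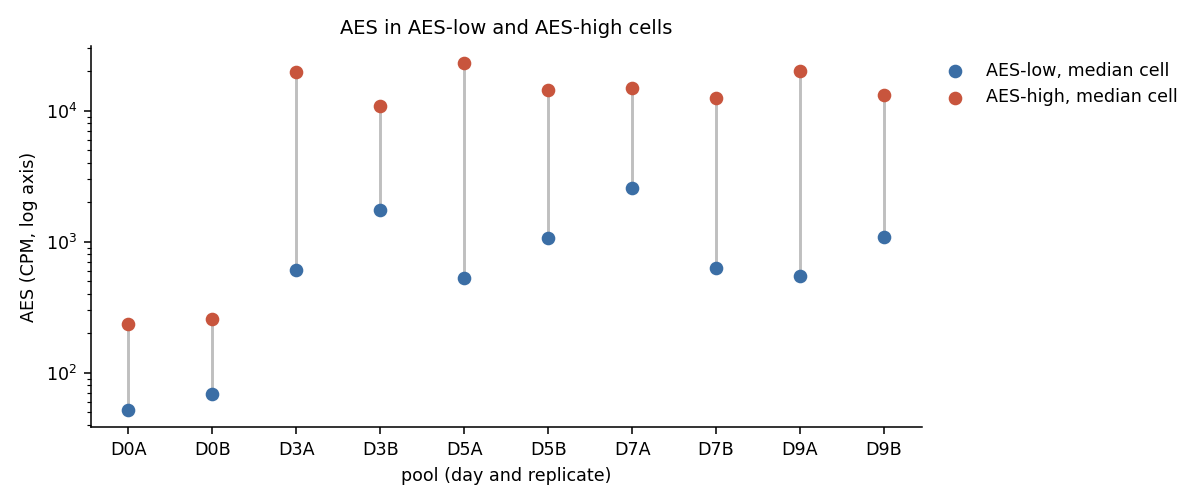
AES in CPM (log axis) of the median AES-low cell (blue) and the median AES-high cell (red) in the 10 pools of D0, D3, D5, D7 and D9, with a grey line joining the groups of a pool. Among the pools of D3, D5 and D7 the gap is widest in D5A (528.6 against 23012 CPM) and narrowest in D7A (2583 against 14900 CPM).

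AES-high cells gave more UMIs, and more of these cells were scored in the S and G2M phases. The median number of UMIs per cell, AES left out, was 22148 (lowest), 32626 (median) and 57190 (highest) over the 6 AES-low groups and 35537 (lowest), 55330 (median) and 86965 (highest) over the AES-high groups. The ranges overlap, but AES-high cells were deeper in 6 of 6 pools, by 1.52-fold in D7A to 1.88-fold in D5B. In D0 the same ranking gave 22219 against 23045 UMIs in pool A and 25804 against 27140 UMIs in pool B. At a fixed depth of 5000 UMIs, the median number of genes per cell was 55.2 ± 23.6 higher in AES-high cells (SD of the difference, n = 6 pools, exact permutation test as below). The share of cells scored in S phase was 9.28% to 24.3% in AES-low and 17.8% to 44% in AES-high groups. The share scored in G2M phase was 5.91% to 27.6% and 36.3% to 63.1%, with no overlap. Each of these measures was higher in 6 of 6 pools, and the two-sided exact permutation test gave p = 0.03125, the smallest that 6 pairs allow, and an adjusted p of 0.0573 over 11 measures, so none passed 0.05 after adjustment. The share of UMIs on mitochondrial genes was 0.522 ± 0.33 percentage points higher (SD, n = 6 pools, exact permutation p = 0.0625). With cells ranked within bins of depth, as described below, the share in S phase differed by 8.05 percentage points, against 14.1 here. That in G2M phase then differed by 17.3 percentage points, against 29.5 here. Phase scores alone do not show that cells were dividing.

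A large part of the measured transcriptome differed between the groups. Of 12302 genes tested, 6505 (52.9%) passed an adjusted p below 0.01 and a log2 difference beyond 0.25 in edgeR's quasi-likelihood test. Of these, 3112 (25.3%) rose and 3393 (27.6%) fell in AES-high cells, and 1978 differed at least 2-fold. The 6 AES-high and 6 AES-low values did not overlap for 2051 genes (16.7%). In D0 the same ranking called 0 genes by edgeR (0%), with 312 at an unadjusted p under 0.05. The median D0 cell held 131.1 CPM of AES in pool A and 150 CPM in pool B, at medians of 23717 and 28376 UMIs. The median D0 cell thus held only a few AES molecules, and whether their sampling accounts for the absence of calls was not tested. D0 therefore does not show what ranking by an RNA as abundant as AES in D3, D5 and D7 would call. Because AES-high cells were deeper, cells were also ranked within 10 bins of depth, which brought the UMI ratio of the groups to 0.999 to 1.01, and 5873 genes were called (47.7%), 22.2% of those tested higher and 25.6% lower. In cells scored G1 alone 4369 were called (35.5%), 17.2% higher and 18.3% lower. List counts below stand beside the shares of their own setting, which are 25.3% higher and 27.6% lower for the first comparison. Without the pairing by pool, 2940 genes were called. Differences below are AES-high minus AES-low on the log2 scale, ± SE.

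Of the transfected factors, LIN28A and SOX2 rose and MYC and KLF4 fell. LIN28A (chr1:26410817-26429728, plus strand) was at 1.1, 12.6, 5.38, 17.4, 81.7 and 19.6 CPM in the AES-low cells of D3A, D3B, D5A, D5B, D7A and D7B, and at 38.6, 161, 500, 731, 460 and 166 CPM in the AES-high cells. It was higher in AES-high cells in every pool, although the ranges overlap because AES-low D7A stood above AES-high D3A. The log2 difference was 4.09 ± 0.49 (edgeR adjusted p = 6.50e-05). SOX2 (chr3:181711925-181714436, plus strand), a transcription factor of the pluripotency network, was at 0.695, 3.55, 1.86, 6.94, 7.39 and 2.44 CPM and at 9.76, 30.9, 93.9, 153, 69.8 and 26.5 CPM in the same order of pools. These groups do not overlap, with a log2 difference of 3.78 ± 0.28 (edgeR adjusted p = 5.55e-06). MYC was at 13.1 CPM (lowest), 45.9 CPM (median) and 100 CPM (highest) in AES-low cells and at 10.3, 14.1 and 27.1 CPM in AES-high cells. In CPM it was lower in AES-high cells in 6 of 6 pools, in D3B against the share of cells with a UMI (5.78% in AES-low and 5.86% in AES-high cells), with a log2 difference of -1.44 ± 0.21 (edgeR adjusted p = 1.94e-04). KLF4, with medians of 8.46 and 4.89 CPM, differed by -0.95 ± 0.19, a call that was lost within bins of depth (-0.43), where MYC was at -0.90. With cells ranked by LIN28A instead of AES, MYC was at -0.66 and KLF4 at -0.61, and neither was called.

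POU5F1 and NANOG did not pass, and their values turned on how cells were chosen. POU5F1 was at 0.463, 0.738, 0.532, 2.14, 74.7 and 21.6 CPM in AES-low cells and at 1.34, 2.79, 7.92, 13.2, 21.3 and 13.9 CPM in AES-high cells of the pools in the order above. In CPM it was higher in the AES-high cells of all 4 pools of D3 and D5 and lower in those of both D7 pools, although in D7B the share of cells with a UMI went the other way (2.56% in AES-low and 3.06% in AES-high cells). Its log2 difference was 0.46 ± 0.64. It was -0.36 within bins of depth, not called, and 1.41 in cells scored G1, where it was called (edgeR adjusted p = 0.00142). NANOG, at medians of 0.155 and 0.451 CPM, differed by 1.08 ± 0.36 (edgeR adjusted p = 0.024), and was called in opposite directions by -0.91 within bins of depth (edgeR adjusted p = 2.00e-04) and 2.62 in cells scored G1 (edgeR adjusted p = 6.94e-05). With cells ranked by LIN28A instead of AES, POU5F1 was called at 2.73 (edgeR adjusted p = 2.82e-04) and NANOG at 3.35 (edgeR adjusted p = 6.40e-04).

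The shares of cells with at least 1 UMI, taken at 5000 UMIs per cell, were compared for each factor. LIN28A was seen in 0.213% to 27.6% of AES-low and 15.5% to 77.3% of AES-high cells, and in D0 fibroblasts, which should lack it, in at most 0.0651%. SOX2 was seen in 0.638% to 3.71% of AES-low and 4.26% to 28.6% of AES-high cells, and in 0% in D0. Both were higher in 6 of 6 pools, with exact permutation p = 0.03125 and adjusted p = 0.0573. D0 cells had received no mRNA, so the D0 shares give no measure of free LIN28A or SOX2 RNA in the libraries of D3, D5 and D7. The share with a MYC UMI was 5.78% to 32.2% and 5.86% to 12.4%, lower in AES-high cells in 5 of 6 pools, with exact permutation p = 0.0625. Those of POU5F1 and KLF4 differed by 1.13 and -1.92 percentage points (exact permutation p = 0.25 and 0.125). That of NANOG differed by 0.47 percentage points, higher in 3 pools and lower in 1, and did not pass. Shares and CPM went opposite ways for MYC in D3B, POU5F1 in D7B, KLF4 in D5B and NANOG in D3A and D7A, and no order is read from the shares of these pools.

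**Figure D2:**
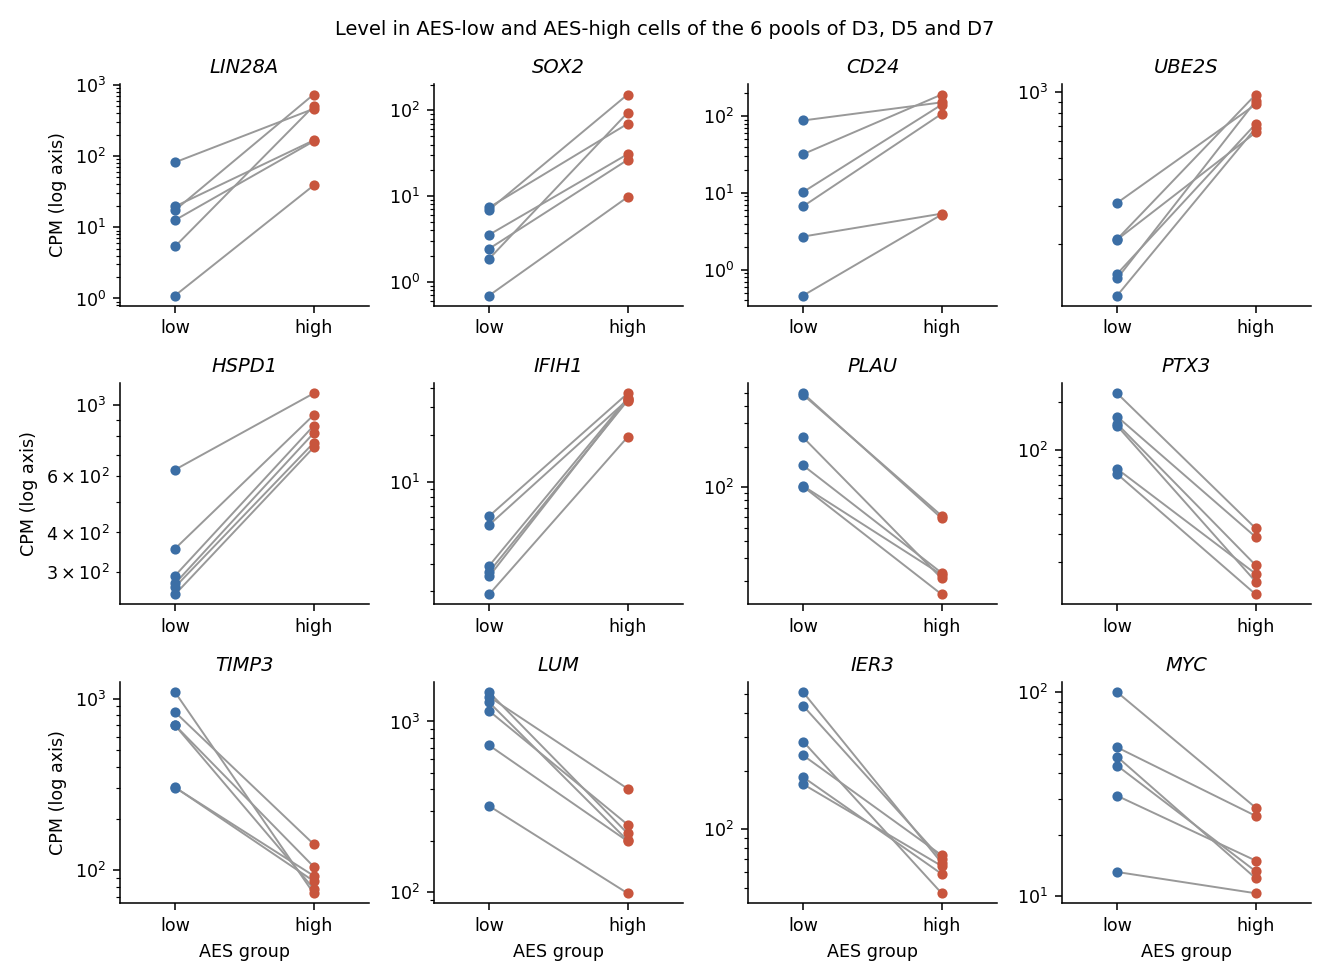
CPM (log axis) of 12 genes in AES-low (blue) and AES-high (red) cells, with a grey line for each of the 6 pools of D3, D5 and D7. LIN28A, SOX2, CD24, UBE2S, HSPD1 and IFIH1 run upwards, and PLAU, PTX3, TIMP3, LUM, IER3 and MYC downwards, in CPM and in 6 of 6 pools. Agreement of the 6 pools was part of the rule that named CD24, UBE2S, PLAU, PTX3 and TIMP3.

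The largest rises, among genes higher in AES-high cells in 6 of 6 pools with a mean of at least 50 CPM there, were in LIN28A, SOX2, RP11-148B6.1, CD24, CENPV, UBE2S, YRDC, LYAR, NFYB, AK4, L1TD1 and MYBL2, down to 1.76 ± 0.30 for the last. Genes were chosen by these same values, so the size of their rises and the agreement of pools are a description. RP11-148B6.1 is annotated in GENCODE v44 as MIR302CHG (chr4:112646476-112650051, minus strand), the host gene of the miR-302 microRNAs, which mark pluripotent cells. It was at 3.47, 17.4, 11.4, 26.7, 220 and 23.3 CPM in AES-low cells and at 47, 79, 234, 341, 421 and 186 CPM in AES-high cells of D3A, D3B, D5A, D5B, D7A and D7B (2.84 ± 0.39, edgeR adjusted p = 1.54e-04). The ranges overlap, and the difference was 0.41 within bins of depth and 4.09 in cells scored G1. The 4 mature sequences of the 3p arm that lie inside this gene are shown (RefSeq, GRCh38.p14) because they share their seed, bases 2 to 8, in capitals. The counts measure the host RNA, not the mature microRNAs.
hsa-miR-302a-3p (chr4:112648186-112648208, minus strand): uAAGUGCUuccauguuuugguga
hsa-miR-302b-3p (chr4:112648489-112648511, minus strand): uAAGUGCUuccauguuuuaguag
hsa-miR-302c-3p (chr4:112648366-112648388, minus strand): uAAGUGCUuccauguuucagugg
hsa-miR-302d-3p (chr4:112648006-112648028, minus strand): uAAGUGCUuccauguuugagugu

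UBE2S, an E2 enzyme that extends ubiquitin chains on targets of the anaphase-promoting complex, was at 116 to 310 CPM in AES-low cells and 654 to 978 CPM in AES-high cells (2.08 ± 0.15, edgeR adjusted p = 5.00e-06). CENPV, a centromere protein, was at 11.5 to 57.1 and 89.1 to 164 CPM in the same order. LYAR, a nucleolar protein, was at 38.3 to 67.6 and 166 to 286 CPM, and YRDC, needed for a tRNA modification, at 9.06 to 21.2 and 38.5 to 88 CPM. NFYB, a subunit of the CCAAT-binding factor NF-Y, was at 16.8 to 28 and 56.9 to 90.8 CPM. None of these 5 genes had overlapping groups, and each kept its call under both alternatives, with CENPV at 1.34 within bins of depth and UBE2S, YRDC, LYAR and NFYB at 1.39, 1.04, 0.73 and 0.89 in cells scored G1. AK4, a mitochondrial adenylate kinase, and MYBL2, a transcription factor of dividing cells, overlapped between groups, with differences of 1.81 ± 0.17 and 1.76 ± 0.30, and of 1.06 and 0.73 within bins of depth.

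Pluripotency genes that were not transfected rose in part, and their count and median differed with how cells were ranked or chosen. Of 13 tested members of a list of 24, 7 rose and 0 fell, with a median log2 difference of 1.33 against -0.02 over all genes tested, of which 25.3% were called higher and 27.6% lower. USP44, a deubiquitinase, had medians of 5.6 and 34.5 CPM (2.54 ± 0.28). CD24, a surface glycoprotein, was at 0.463, 2.71, 6.71, 10.3, 87.8 and 32 CPM in AES-low cells and at 5.24, 5.38, 107, 141, 151 and 191 CPM in AES-high cells of the pools in the order above (2.38 ± 0.44, edgeR adjusted p = 9.11e-04). TDGF1, a co-receptor of Nodal, had medians of 1.61 and 21.5 CPM (2.28 ± 0.47), and L1TD1, an RNA-binding protein of pluripotent cells, 30.4 and 150 CPM (1.79 ± 0.28). Within bins of depth 1 member rose, 3 fell and the list median was -0.06, where 22.2% of all genes were called higher and 25.6% lower. The difference was then 1.13 for USP44, 0.20 for CD24, 0.21 for L1TD1 and -0.65 for TDGF1. In cells scored G1, 11 rose and 0 fell, with a median of 2.54, where 17.2% of all genes were called higher and 18.3% lower. There the difference was 2.89 for USP44, 3.79 for CD24, 2.75 for L1TD1 and 3.35 for TDGF1.

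MYC targets and ribosome biogenesis genes were higher in AES-high cells. Of 40 tested members 36 rose and 0 fell, with a median of 0.85, and within bins of depth 36 rose and 0 fell, with a median of 0.72. NOP16, a nucleolar protein of ribosome assembly, was at 45.5 to 93.4 CPM in AES-low cells and 159 to 362 CPM in AES-high cells (1.56 ± 0.15, edgeR adjusted p = 1.56e-05). ODC1, the rate-limiting enzyme of polyamine synthesis, was at 37.3 to 95.2 and 97.5 to 313 CPM (1.37 ± 0.14). PNO1, an assembly factor of the small ribosomal subunit, was at 22.4 to 49.3 and 63.7 to 128 CPM (1.31 ± 0.11), and HSPD1, the mitochondrial chaperonin, at 256 to 629 and 738 to 1090 CPM (1.31 ± 0.09). The groups overlap for none of these 4 genes. In cells scored G1 the list was weaker, with 15 higher and 2 lower at a median of 0.20, ODC1 was not called (0.18), and NOP16 and PNO1 were at 0.43 and 0.53. HSPD1 was at 0.80 within bins of depth. MYC itself was among the genes that fell.

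The E-box CACGTG, which MYC binds with MAX, was searched in 300 bases around each start site, 250 before and 50 after (RefSeq, GRCh38.p14). The motif reads the same on both strands. It was in 7.26% of 35116 promoters and, counted by gene, in 8.77% of the 27305 genes with a promoter sequence. Of the tested genes 9869 had such a sequence, and it was in 12.6% of these. It was in 15% of those that rose, in 10.1% of those that fell and in 15 of the 35 matched list members (42.9%). It was in 1 of the 18 chemokine list members, 3 of the 15 immediate early genes and 0 of the 25 fibroblast genes. The list with 15 of 35 was chosen as MYC targets and ribosome biogenesis genes, so its share is a description and no test of MYC. The promoters of the 2 list members with the largest difference among those holding the motif are shown, with the motif in capitals.
ODC1 promoter (chr2:10447963-10448262, minus strand): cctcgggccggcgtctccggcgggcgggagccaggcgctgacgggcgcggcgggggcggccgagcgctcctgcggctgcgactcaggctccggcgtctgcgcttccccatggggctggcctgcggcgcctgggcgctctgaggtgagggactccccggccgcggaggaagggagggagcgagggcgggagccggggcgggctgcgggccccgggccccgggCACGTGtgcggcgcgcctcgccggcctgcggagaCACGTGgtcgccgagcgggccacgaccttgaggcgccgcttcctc
HSPD1 promoter (chr2:197500225-197500524, minus strand): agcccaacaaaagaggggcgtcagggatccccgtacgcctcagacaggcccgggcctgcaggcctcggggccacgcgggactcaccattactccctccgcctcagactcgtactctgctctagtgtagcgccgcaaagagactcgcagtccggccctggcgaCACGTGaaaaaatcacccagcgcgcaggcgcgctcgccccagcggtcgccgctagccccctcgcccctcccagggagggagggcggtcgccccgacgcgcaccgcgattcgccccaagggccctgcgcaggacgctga

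Cell cycle genes moved with the phase scores, which are computed from the same lists. Of 42 tested S phase genes 38 rose and 0 fell (median 0.90), and of 54 G2M genes 44 rose and 0 fell (median 0.87). Within bins of depth 34 S phase genes rose and 1 fell (median 0.58), and 34 G2M genes rose and 1 fell (median 0.37). In cells scored G1, which the same lists define, 12 S phase genes rose and 2 fell (median 0.27), and 20 G2M genes rose and 2 fell (median 0.57). BLM, a DNA helicase, and CDC45, a subunit of the replicative helicase, differed by 1.47 ± 0.20 and 1.39 ± 0.22. NDC80, a kinetochore protein, was at 5.34 to 24.5 CPM in AES-low cells and 33.3 to 56.5 CPM in AES-high cells (1.51 ± 0.24), and UBE2C, an E2 enzyme of mitotic exit, at 43.6 to 163 and 173 to 365 CPM (1.49 ± 0.28). Their differences within bins of depth were 0.95 for BLM, 0.84 for CDC45, 0.83 for NDC80 and 0.61 for UBE2C, and in cells scored G1 0.80 for BLM and 0.60 for UBE2C. In D0 the list medians were -0.22 and -0.20, with 0 members called.

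The largest falls were sought among called genes that were lower in AES-high cells in 6 of 6 pools and had a mean of at least 50 CPM over the AES-low groups. Being chosen by these values, the genes have falls and an agreement of pools that are a description. They included CXCL8, POU2F2, PLAU, CASP1, EREG, PTX3, LOXL4, TIMP3, TNFRSF11B, CXCL1 and CST1, from -3.05 ± 0.43 to -2.50 ± 0.22. CXCL8 (chr4:73740519-73743716, plus strand), a neutrophil chemokine, was at 27.4, 7.66, 444, 375, 23.3 and 49.9 CPM in AES-low cells of D3A, D3B, D5A, D5B, D7A and D7B and at 9.83, 2.74, 14.7, 41.8, 3.14 and 3.99 CPM in AES-high cells. Its AES-low mean was carried by the D5 pools, and the median was 38.6 CPM. PLAU (chr10:73909177-73917496, plus strand), the urokinase plasminogen activator, was at 497, 102, 485, 234, 101 and 145 CPM and at 58.7, 22.4, 61.3, 21, 16 and 23.1 CPM in the same order, with no overlap (-2.90 ± 0.15, edgeR adjusted p = 1.93e-06). D0 cells held 38.8 to 45.9 CPM of PLAU.

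The other genes named here have different roles. PTX3, a soluble pattern recognition protein, was at 70.5 to 225 CPM in AES-low cells and 12.5 to 32.3 CPM in AES-high cells (-2.75 ± 0.13). TIMP3, a metalloproteinase inhibitor bound to matrix, was at 303 to 1088 and 73.4 to 142 CPM (-2.71 ± 0.26). CASP1, the protease that activates interleukin-1β, was at 22.7 to 116 and 5.53 to 12.2 CPM (-2.88 ± 0.19), and POU2F2, a POU transcription factor known from B cells, was at 40.9 to 185 and 9.43 to 23.7 CPM (-2.94 ± 0.19). The groups did not overlap for any of these 4 genes. Ranking within bins of depth gave -1.79 for TIMP3, -1.79 for CASP1, -1.81 for LOXL4 and -1.49 for CST1.

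Of 23 tested members of a list of 34 chemokines, interleukins and proteases, 20 fell and 1 rose, with a median of -2.17 and, within bins of depth, of -1.50 with 20 lower and 1 higher. In cells scored G1 18 were lower and 3 higher, at a median of -1.88 and at -2.12 for CCL7. CCL7, a monocyte chemokine, had medians of 19.7 and 2.35 CPM (-3.22 ± 0.20), and IL1B, encoding interleukin-1β, 5.37 and 0.963 CPM (-3.05 ± 0.22). The member that rose was NRG1, a ligand of ERBB receptors (0.78), named after its value was seen. SPP1, osteopontin, did not pass (0.82 ± 0.64), and was called lower within bins of depth (-1.52, edgeR adjusted p = 2.58e-06) and higher in cells scored G1 (2.17, edgeR adjusted p = 0.00182).

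The sequence TGANTCA, bound by AP-1 dimers of FOS and JUN proteins, was searched on both strands of the same windows. It was in 7.71% of all promoters and, counted by gene, in 9.37% of the 27305 genes with a promoter sequence. By gene it was also in 6.76% of the tested genes, in 8.67% of the genes that fell and in 4.56% of those that rose. Of the 18 matched list members 4 held it (22.2%). Of the other lists that mostly fell, it was in 0 of the 15 immediate early genes and 3 of the 25 fibroblast genes (12%). The promoters of the 2 list members with the largest difference among those holding it are shown, with the motif in capitals.
CCL7 promoter (chr17:34269971-34270270, plus strand): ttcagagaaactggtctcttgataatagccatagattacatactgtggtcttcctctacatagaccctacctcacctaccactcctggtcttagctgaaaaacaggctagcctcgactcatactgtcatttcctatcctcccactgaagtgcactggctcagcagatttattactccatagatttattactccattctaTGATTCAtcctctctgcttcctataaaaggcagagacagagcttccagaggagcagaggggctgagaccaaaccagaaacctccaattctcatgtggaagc
CXCL8 promoter (chr4:73740319-73740618, plus strand): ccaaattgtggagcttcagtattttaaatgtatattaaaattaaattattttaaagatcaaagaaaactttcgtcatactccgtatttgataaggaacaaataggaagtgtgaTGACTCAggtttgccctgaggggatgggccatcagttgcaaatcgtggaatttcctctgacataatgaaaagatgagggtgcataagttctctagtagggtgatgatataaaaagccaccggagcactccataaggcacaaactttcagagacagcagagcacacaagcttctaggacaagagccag

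Fibroblast identity genes were lower in AES-high cells. Of 38 tested members 32 fell and 2 rose, with a median of -1.29. There were 2 higher and 31 lower within bins of depth (median -0.83) and 2 higher and 29 lower in cells scored G1 (median -1.05). SNAI2, a repressor of epithelial genes, had medians of 72.6 and 11.9 CPM (-2.44 ± 0.16). PDGFRB, a growth factor receptor of mesenchymal cells, was at 56.1 to 235 CPM in AES-low cells and 16.6 to 38.3 CPM in AES-high cells (-2.26 ± 0.17). LUM, a proteoglycan of collagen matrix, was at 725, 320, 1396, 1482, 1152 and 1294 CPM in AES-low cells and at 199, 98.7, 404, 221, 249 and 201 CPM in AES-high cells of the pools in the order above, lower in every pool (-2.24 ± 0.14, edgeR adjusted p = 3.41e-06). D0 cells held 803 to 1146 CPM of LUM. ANPEP, the surface peptidase CD13, had medians of 301 and 77.4 CPM (-2.00 ± 0.16). The members that rose were CDH2, N-cadherin (1.48), and TWIST1, a mesenchymal transcription factor (0.66), both named after their values were seen. Differences within bins of depth were -1.43 for SNAI2, -1.36 for PDGFRB, -1.29 for LUM and -1.24 for ANPEP.

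Both groups still held RNA of the fibroblast list as a whole. Its summed level was 21309 to 48755 CPM in AES-low and 10305 to 20645 CPM in AES-high groups. VIM, vimentin, a member of that list, was at 3868 to 11052 CPM in AES-low and 2060 to 4835 CPM in AES-high cells. Of 15 markers of keratinocytes, endothelium, blood, melanocytes and Schwann cells, 1 passed the filter on low values: CD68, a lysosomal protein of macrophages, which fell (-1.95 ± 0.15, and -1.24 within bins of depth). The other 14 summed to 1.58 to 4.15 CPM in AES-low and 1.9 to 7.19 CPM in AES-high groups. Of these PTPRC, the leukocyte antigen CD45, reached 0.51 CPM in AES-low and 5.02 CPM in AES-high groups, and CD3E and SOX10 were at 0 in each group.

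Immediate early genes, which serum and stress induce within minutes, were lower in AES-high cells. Of 19 tested members 17 fell and 0 rose, with a median of -1.18. There were 0 higher and 16 lower within bins of depth (median -0.80) and 0 higher and 13 lower in cells scored G1 (median -0.62). IER3 was at 171 to 510 CPM in AES-low cells and 46.8 to 73.5 CPM in AES-high cells, without overlap (-2.23 ± 0.21). JUNB, a subunit of AP-1, had medians of 130 and 36.1 CPM (-1.69 ± 0.10), DUSP1, a phosphatase of MAP kinases, 49.9 and 16.9 CPM (-1.57 ± 0.08), and EGR2, a zinc finger factor, 17.6 and 4.63 CPM (-1.88 ± 0.20). Cells ranked within bins of depth gave -1.42 for IER3, -0.91 for JUNB, -0.99 for DUSP1 and -0.71 for EGR2.

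Most tested members of a list of interferon-stimulated genes were lower in AES-high cells. IFIH1, counted here among RNA sensors and left out of that list, was higher. Of 31 tested interferon-stimulated genes, from a list of 46, 21 fell and 0 rose, with a median of -0.83. There were 1 higher and 19 lower within bins of depth (median -0.43) and 1 higher and 20 lower in cells scored G1 (median -0.72). IFITM2, which restricts virus entry, was at 152 to 323 CPM in AES-low cells and 80.1 to 148 CPM in AES-high cells (-1.42 ± 0.12), and IRF1, a transcription factor, at 11 to 26.3 and 5.86 to 9.01 CPM (-1.47 ± 0.17). PSMB9, a subunit of the immunoproteasome, and IFI35 differed by -1.76 ± 0.14 and -1.74 ± 0.14. With depth matched in bins the differences of IFITM2, PSMB9 and IFI35 lay between -1.12 and -0.93.

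IFIH1 (MDA5, chr2:162267074-162318684, minus strand), which senses long double-stranded RNA in the cytoplasm, was at 1.91, 5.31, 2.66, 2.49, 6.05 and 2.91 CPM in AES-low cells and at 19.4, 33.6, 33.2, 33.9, 36.9 and 34.4 CPM in AES-high cells of D3A, D3B, D5A, D5B, D7A and D7B. The groups did not overlap, and D0 cells held 4.71 to 5.15 CPM. The log2 difference was 3.09 ± 0.16 (edgeR adjusted p = 1.93e-06), 2.96 within bins of depth and 2.40 in cells scored G1. Of 14 tested RNA sensors and adaptors 2 rose and 6 fell, with a median of -0.26, where 25.3% of all genes were called higher and 27.6% lower. There were 2 higher and 3 lower within bins of depth (median -0.18) and 1 higher and 4 lower in cells scored G1 (median -0.11). The other member that rose was ZC3HAV1, an antiviral protein that binds RNA (0.51 ± 0.08), without a call in cells scored G1 (0.29). NLRP1, an inflammasome sensor, fell (-1.70 ± 0.12, and -0.95 in cells scored G1), and EIF2AK2, the kinase PKR, differed by -0.32 ± 0.07, a call that was lost within bins of depth (-0.19) and in cells scored G1 (-0.14).

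The counts of the next lists stand beside 25.3% higher and 27.6% lower over all genes tested, within bins of depth beside 22.2% and 25.6%, and in cells scored G1 beside 17.2% and 18.3%. Of 25 genes of the integrated stress response 10 rose and 8 fell, with a median of 0.19, and there were 9 higher and 9 lower within bins of depth (median 0.05) and 10 higher and 9 lower in cells scored G1 (median 0.31). The rises included SLC7A5, an amino acid transporter (1.96 ± 0.30), PSAT1, of serine synthesis (1.72 ± 0.18), CTH, of cysteine synthesis (1.61 ± 0.25), and SLC7A11, the cystine transporter (1.52 ± 0.20). Values within bins of depth were 0.97 for SLC7A5, 1.03 for PSAT1, 0.65 for CTH and 0.65 for SLC7A11. Of 24 p53 targets and cell cycle inhibitors 9 rose and 6 fell (median 0.20), with rises in SESN1 (1.24 ± 0.09), BTG2 (1.19 ± 0.16), GADD45G (1.04 ± 0.17) and AEN (1.00 ± 0.09), the last not called in cells scored G1 (0.26). GADD45G was at 0.52 within bins of depth and SESN1 at 0.77 in cells scored G1. For these targets there were 10 higher and 5 lower within bins of depth (median 0.19) and 10 higher and 5 lower in cells scored G1 (median 0.25). Of 14 chaperone and heat shock genes 9 rose and 3 fell (median 0.51), and there were 8 higher and 3 lower within bins of depth (median 0.37) and 5 higher and 2 lower in cells scored G1 (median 0.18). HSPE1, the partner of HSPD1, and HSPH1 differed by 0.90 ± 0.08 and 0.82 ± 0.07, HSPH1 without a call in cells scored G1 (0.22), and CRYAB, a small heat shock protein, by -1.04 ± 0.12. HSPE1 was at 0.53 and CRYAB at -0.69 within bins of depth, and HSPE1 at 0.47 in cells scored G1.

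Of 32 genes of mRNA decay and its regulation 14 rose and 5 fell (median 0.24), and there were 11 higher and 4 lower within bins of depth (median 0.12) and 9 higher and 4 lower in cells scored G1 (median 0.06). DCP2, the decapping enzyme, had medians of 13.1 and 38.4 CPM (1.40 ± 0.14, and 0.64 within bins of depth). ZFP36L1 and ZFP36L2, which bring AU-rich mRNAs to decay, fell by 1.38 ± 0.08 and 1.46 ± 0.08 on the log2 scale, with no overlap between groups. Of 30 tested lysosomal and endocytic genes 4 rose and 16 fell (median -0.40), and there were 3 higher and 14 lower within bins of depth (median -0.19) and 2 higher and 16 lower in cells scored G1 (median -0.31). CAV1, the coat protein of caveolae, was at 967 to 2015 CPM in AES-low cells and 219 to 569 CPM in AES-high cells (-2.40 ± 0.13), and the lysosomal proteases CTSB, CTSK and CTSL differed by -1.68 ± 0.14, -1.53 ± 0.10 and -1.24 ± 0.10. For the proteases the values within bins of depth were -0.96 for CTSB, -0.87 for CTSK and -0.82 for CTSL, and CTSL was at -0.70 in cells scored G1.

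Of 18 tested let-7 targets 8 rose and 4 fell (median 0.28), and there were 5 higher and 4 lower within bins of depth (median 0.04) and 5 higher and 2 lower in cells scored G1 (median 0.05). E2F5, a transcription factor, and CDC25A, a cell cycle phosphatase, differed by 2.24 ± 0.15 and 2.09 ± 0.16, CDC25A without a call in cells scored G1 (0.45), and HMGA2, a chromatin protein, and IGF2BP3, an RNA-binding protein, by -1.22 ± 0.09 and -1.07 ± 0.20. HMGA2 was at -0.48 in cells scored G1 and IGF2BP3 at -0.70 within bins of depth. Of 16 tested epithelial genes 1 rose and 4 fell (median -0.09), and within bins of depth 0 rose and 11 fell (median -1.02), whereas in cells scored G1 5 rose and 2 fell (median 0.89). KRT19, a keratin, differed by -1.91 ± 0.17 and by -0.79 in cells scored G1, and JUP, plakoglobin, by -0.61 ± 0.16 but by 0.55 in cells scored G1. Of 24 cholesterol synthesis genes 1 rose and 11 fell (median -0.26), and there were 1 higher and 16 lower within bins of depth (median -0.36) and 6 higher and 1 lower in cells scored G1 (median 0.18). INSIG1, a sterol sensor, and MVK, mevalonate kinase, went from -0.69 and -0.72 to 0.31 and 0.06 in cells scored G1. Of 13 mitochondrial mRNAs 7 rose and 0 fell (median 0.27), and there were 1 higher and 0 lower within bins of depth (median 0.07) and 10 higher and 0 lower in cells scored G1 (median 0.40). The 3 tested TLE family members, TLE1, TLE3 and TLE4, differed by 0.31, -0.33 and 0.03, and none passed. There were 0 higher and 0 lower within bins of depth (median 0.09) and 2 higher and 1 lower in cells scored G1 (median 0.33). By day, members called higher and lower were 1 and 0 in D3, 0 and 1 in D5, 0 and 0 in D7 and 0 and 1 in D9, where 47.5%, 45.2%, 45.8% and 31.5% of all genes were called either way. Within bins of depth they were 2 and 0, 0 and 0, 1 and 0 and 0 and 1, against 49.4%, 33.8%, 40.5% and 38.9%.

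**Figure D3:**
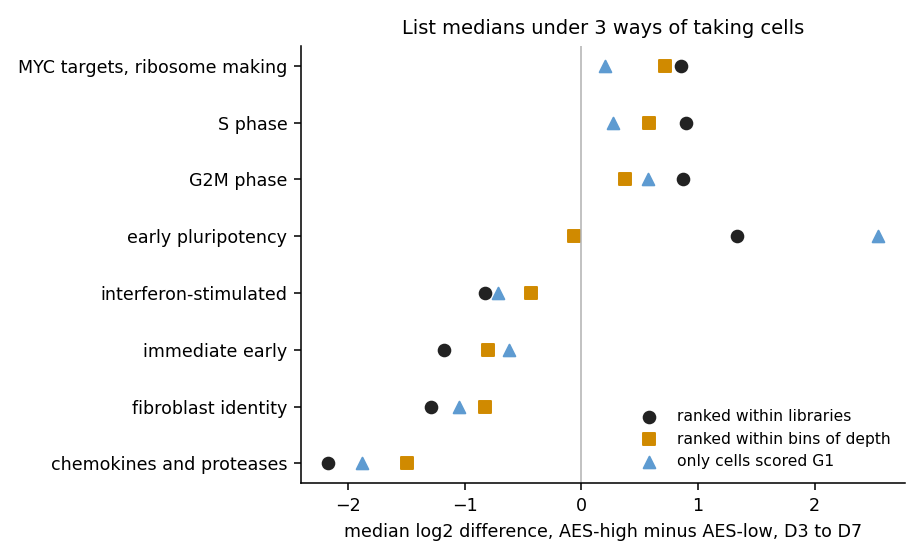
Median log2 difference (AES-high minus AES-low, D3, D5 and D7) of 8 gene lists, with cells ranked within libraries (black circles), within bins of depth (orange squares) or with cells scored G1 alone (blue triangles). The early pluripotency list goes from 1.33 to -0.06 within bins of depth and to 2.54 in G1 cells, while the fibroblast list stays at -1.29, -0.83 and -1.05.

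The cells between the groups were compared as well. In the third against the second of 4 bins of AES, which belong to neither group, 1831 genes (14.9%) were called, 825 higher (6.71%) and 1006 lower (8.18%) in the bin with more AES. Without D3B 1143 were called, without D5A 1115, without D7B 1115, and without the pairing by pool 1. Mean levels over the 4 bins, from low to high, took different forms. UBE2S was at 189, 278, 501 and 805 CPM and IFIH1 at 3.55, 4.07, 15.7 and 31.9 CPM. LIN28A, at 23, 52.1, 78.7 and 343 CPM, and SOX2, at 3.81, 5.41, 9.13 and 63.9 CPM, had their widest step at the top. RP11-148B6.1, CD24 and L1TD1 were highest in the third bin, at 50.4, 205, 430 and 218 CPM, at 23.3, 79.4, 170 and 100 CPM and at 49.5, 135, 189 and 126 CPM. PLAU was at 261, 91.3, 39 and 33.8 CPM and CXCL8 at 154, 18.9, 8.77 and 12.7 CPM. Between the middle bins 3 of 23 chemokine list members and 22 of 38 fibroblast genes fell.

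**Figure D4:**
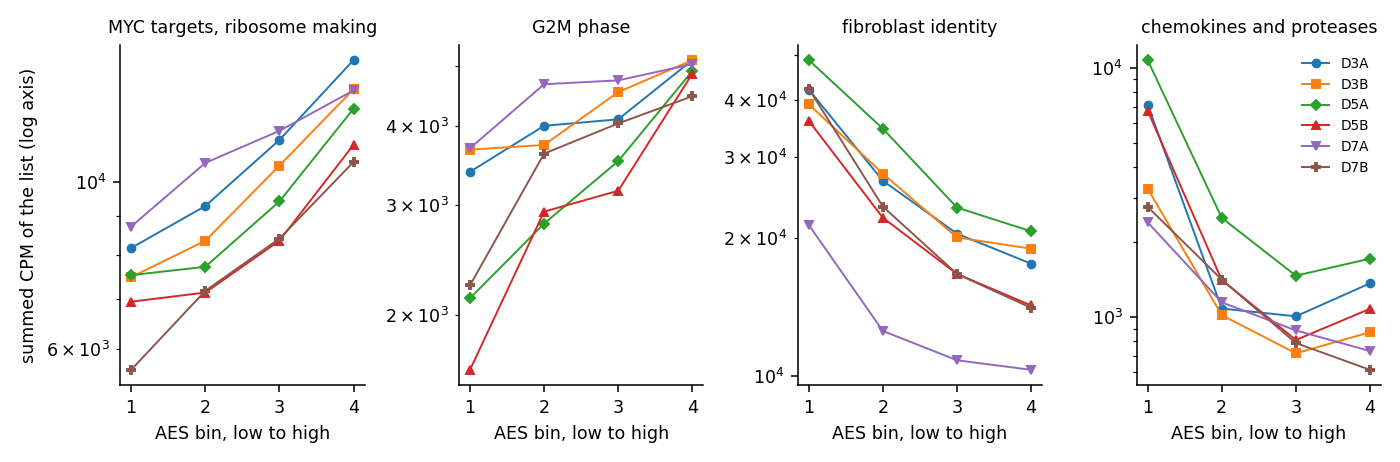
Summed CPM (log axis) of the tested members of 4 lists in the 4 AES bins, from low to high, with a line for each of the 6 pools. The fibroblast list goes from 21309 to 48755 CPM in the lowest bin to 10305 to 20645 CPM in the highest, and the chemokine list from 2403 to 10752 CPM in the lowest bin to 1019 to 2502 CPM in the next.

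By day, the difference between AES-high and AES-low cells called 5843 genes (47.5%) in D3, 5561 (45.2%) in D5, 5630 (45.8%) in D7 and 3874 (31.5%) in D9, each from 2 pools with the spread estimated over 10. With 1 pool of the day left out, the counts were 2834 and 3953 in D3, 2067 and 3766 in D5, 5751 and 3439 in D7 and 1184 and 2341 in D9 (without pool A and without pool B). The mean difference of D3, D5 and D7 departed from that of D0 in 4969 genes (40.4%), 2442 higher (19.9%) and 2527 lower (20.5%), and in 2134 without D0A and 2037 without D0B. D0 cells were ranked by few AES molecules each, and how far this adds to the departures was not tested. Among genes at 20 CPM or more, the largest departures from D0 were RIMS2 (3.54 ± 0.47), a presynaptic protein, IFIH1 (3.24 ± 0.24) and MROH8 (3.17 ± 0.39) upwards. Downwards they were DLL4, a Notch ligand (-3.36 ± 0.55), IL1B (-3.13 ± 0.54) and ACKR4, a scavenging chemokine receptor (-3.13 ± 0.15), with the calls of DLL4 and IL1B lost without D0B. RIMS2 was at 1.59 to 9.8 CPM in AES-low cells and 26.1 to 54.1 CPM in AES-high cells of D3, D5 and D7 and at 2.9 to 3.62 CPM in D0. SOX2 and LIN28A, at or next to 0 in D0, did not pass this test.

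Between the transfected days the number of genes whose difference itself changed depended on the processing. D5 minus D3 called 0 genes by edgeR (0%), with 3012 at an unadjusted p under 0.05. D7 minus D5 called 10 (0.0813%), 1 higher (0.00813%) and 9 lower (0.0732%), and D7 minus D3 91 (0.740%), 46 higher (0.374%) and 45 lower (0.366%). In the same order, ranking within bins of depth called 72, 24 and 770, no filter on genes 518, 376 and 461, and the fit without pairing 0, 0 and 2. Single pools moved these counts: D7 minus D5 called 1 gene without D5A, 23 without D7A and 721 without D7B, and D7 minus D3 called 0 without D3A, 3 without D3B, 509 without D7A and 266 without D7B. ANKRD1, a muscle ankyrin repeat protein, was at 0.356 CPM in AES-low and 8.1 CPM in AES-high cells of D5 and at 82.1 CPM in AES-low and 10.2 CPM in AES-high cells of D7 (D7 minus D5, -7.72 ± 0.49), a call that was lost without D5B. RGS16, a regulator of G protein signalling, was at 1.09 CPM in AES-low and 20.4 CPM in AES-high cells of D3 and at 4.29 CPM in AES-low and 6.7 CPM in AES-high cells of D7 (D7 minus D3, -3.34 ± 0.43), a call that was lost without D3A.

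**Figure D5:**
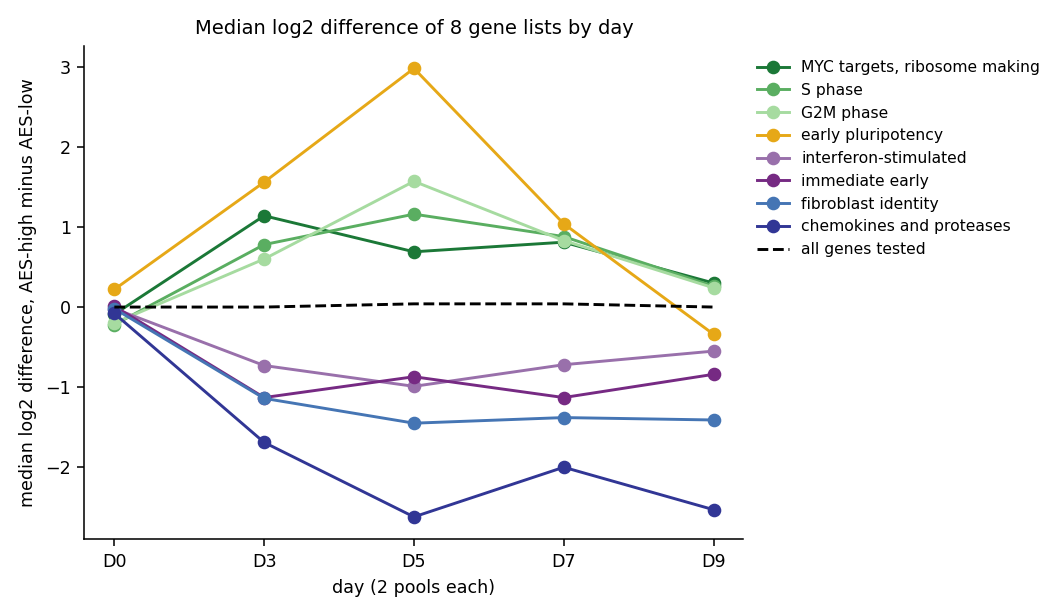
Median log2 difference (AES-high minus AES-low) of 8 gene lists in D0, D3, D5, D7 and D9, with all genes tested as a dashed line. The chemokine list is at -0.08 in D0 and between -2.62 and -1.69 from D3 to D9, and the early pluripotency list goes from 2.98 in D5 to -0.34 in D9. Within bins of depth, which are not drawn, the early pluripotency list was at 0.59 in D3, 0.23 in D5 and -0.39 in D7.

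D9, whose cells did not choose the comparison, called 17.3% of all genes lower and 14.2% higher in AES-high cells. Of the 3393 genes that fell in D3, D5 and D7, 1697 (50%) were also called lower in D9, 79.6% of the 2131 called lower there, and 29 were called higher. Of the 3112 that rose, 1232 (39.6%) were also called higher, 70.7% of the 1743 called higher there, and 10 were called lower. Across 12302 genes, which are not independent, the differences of D9 and of D3, D5 and D7 had Pearson's r = 0.765, as a description, and those of D0 -0.00697. The D0 value rests on a ranking by few AES molecules per cell. UBE2S in D9A and D9B was at 277 and 289 CPM in AES-low cells and 948 and 823 CPM in AES-high cells, and PLAU at 137 and 86.4 CPM in AES-low cells and 18.8 and 24.2 CPM in AES-high cells.

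The difference in D9 departed from that of D3, D5 and D7 in 1234 genes (10.0%), 428 higher (3.48%) and 806 lower (6.55%). The medium also changed from day 9, so the harvest day, the end of transfection and the medium cannot be told apart. The largest upwards were CD83, an immune surface protein (2.90 ± 0.19), MTUS1, a microtubule-associated protein (2.85 ± 0.28), and RGS17 (2.77 ± 0.37), whose call was lost without D9B. The largest downwards were RGS16 (-4.26 ± 0.31), SOX2 (-3.55 ± 0.42) and TRIML2 (-3.34 ± 0.37). POU5F1 in D9A and D9B was at 706 and 688 CPM in AES-low cells and 148 and 191 CPM in AES-high cells (-3.30 ± 0.35). This order in CPM was already that of both D7 pools, harvested during transfection, and the reverse of that in D3 and D5. LIN28A was at 94.5 and 136 CPM in AES-low cells and 317 and 170 CPM in AES-high cells (-3.20 ± 0.41). Of 13 early pluripotency genes 7 had a lower difference in D9 and 0 a higher one, and of 40 MYC and ribosome genes 17 and 1. Without D9A 207 genes were called and without D9B 96, and leaving out a pool of D3 or D5 gave 466 to 717 and of D7 2003 to 2876.

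The genes whose levels followed AES most closely among single cells were described over the 9 libraries of D3, D5 and D7, at 50 CPM or more. The median rank correlation with AES was 0.773 for LIN28A (0.558 to 0.886 by library), 0.615 for SOX2, 0.615 for SLIRP, 0.563 for APRT and 0.540 for YBX3. RPL35, UBE2S, RPS27A, YBX1 and CYCS followed at 0.539 to 0.526. SLIRP stabilises mitochondrial mRNA, APRT recycles adenine, YBX1 and YBX3 are cold shock proteins that bind mRNA, and CYCS is cytochrome c. Cells of a library share its free RNA and range of depth, so these values carry no test.

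Further genes that earlier results of these data had brought up moved in both directions. TNFRSF11B, osteoprotegerin, had medians of 248 and 39.3 CPM (-2.61 ± 0.17, and -1.69 within bins of depth). OSR2, a zinc finger factor of connective tissue, differed by -1.20 ± 0.14, and by -0.59 within bins of depth. RARRES2, chemerin, had medians of 139 and 113 CPM and did not pass (-0.60 ± 0.22). NME2, a nucleoside diphosphate kinase with a near-identical neighbour, NME1, and therefore uncertain, differed by 0.34 ± 0.06, a call that was lost within bins of depth (0.17) and in cells scored G1 (0.27).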

How the data were processed

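Single-cell RNA of BJ fibroblasts was sequenced with a 3′ droplet kit. The authors deposited UMI counts per gene and cell made with Cell Ranger 2.2 against GRCh38 (33694 genes, 22 libraries), and the deposited counts were used without normalization. Kept cells had 1000 genes or more and no more than 10% of their UMIs on mitochondrial genes, and were ranked within libraries by AES CPM. No doublet caller was run, and an alternative left out the 5% of cells with most UMIs. Libraries of D3, D5 and D7 shared at most 16 cell barcodes in a pair. UMIs without AES were summed per pool and group, 5618318 to 46271992 a sum, and the 12302 genes detected in at least 5% of kept D3 to D7 cells were tested by edgeR 4.0.16 (quasi-likelihood, TMM, R 4.3.3) with pool as a block and Benjamini-Hochberg adjustment. Both groups of a pool come from the same libraries, so the pairing is part of the design. Calls needed an adjusted p below 0.01 and a log2 difference beyond 0.25. Cell measures were compared by two-sided exact permutation tests over 6 pairs, with all sign changes of the paired differences (numpy 2.4.6). On simulated counts for the D3 to D7 comparison over 12302 genes, 0, 15, 44 and 49 of 50 genes changed 1.25-, 1.5-, 2- and 4-fold were called, with 2 false calls. Only these genes were changed, a far smaller share than the 52.9% called in the real comparison. The 2 false calls hold for that simulated setting alone.

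Named genes were the transfected factors, the 12 largest rises and falls at 50 CPM or more that moved alike in 6 pools, up to 4 called members of each list at 10 CPM or more, the 3 largest changes each way in a difference between days at 20 CPM or more, the 10 genes most correlated with AES, and genes that earlier results had brought up. Some genes that this rule names are not reported here. Exceptions are named as chosen after their values were seen. The members and lists were chosen with earlier results of these data known. Alternatives changed the scaling, tool, filters, ranking, cell choice, depth and block, and left out each pool. Intervals of the error given cover the spread between pools only.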

Additional observations from a re-analysis of the deposited data

Results flagged for a closer look

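Of 38 groups of 6 pools examined, 2 had a pool far from the rest, about as many as chance gives at 1 in 20. CST1, a cystatin, had a log2 ratio of -1.19 in D7A against -2.88 to -2.27 in the other pools. AK4 had 0.86 in D7A against 1.95 to 2.35. D7A was also the pool with the smallest AES ratio between the groups, and its part in these values was not tested.

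The difference between AES-high and AES-low cells departed between days, by a test of the difference itself, in 10 genes for D7 minus D5, 91 for D7 minus D3, 4969 for D3, D5 and D7 minus D0 and 1234 for D9 minus D3, D5 and D7. The genes given here are the largest changes each way among called genes at 20 CPM or more, with POU5F1 and LIN28A as transfected factors. For D7 minus D5 these were MEF2C (1.03 ± 0.13, edgeR adjusted p = 0.009), ANKRD1 (-7.72 ± 0.49, edgeR adjusted p = 5.01e-04), SPP1 (-3.87 ± 0.41, edgeR adjusted p = 0.0037) and DKK1 (-2.04 ± 0.21, edgeR adjusted p = 0.0037). Each of the 4 lost its call without a D5 pool, MEF2C and SPP1 without either, DKK1 without D5A and ANKRD1 without D5B, and 1 gene in all was called without D5A. For D7 minus D3 they were RAB38 (1.50 ± 0.17, edgeR adjusted p = 0.0032), ABHD17C (1.46 ± 0.15, edgeR adjusted p = 0.0027) and PGM2L1 (1.35 ± 0.21, edgeR adjusted p = 0.0092) upwards. Downwards they were RGS16 (-3.34 ± 0.43, edgeR adjusted p = 0.0046), NSG1 (-3.33 ± 0.42, edgeR adjusted p = 0.0042) and RDH10 (-2.75 ± 0.22, edgeR adjusted p = 9.61e-04). All 6 lost their call without D3A, where 0 genes were called by edgeR, and all but RGS16 also without D3B, where 3 were called.

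Against D0 the largest were RIMS2 (3.54 ± 0.47, edgeR adjusted p = 1.82e-04), IFIH1 (3.24 ± 0.24, edgeR adjusted p = 2.73e-05) and MROH8 (3.17 ± 0.39, edgeR adjusted p = 1.23e-04) upwards. Downwards they were DLL4 (-3.36 ± 0.55, edgeR adjusted p = 5.75e-04), IL1B (-3.13 ± 0.54, edgeR adjusted p = 7.68e-04) and ACKR4 (-3.13 ± 0.15, edgeR adjusted p = 1.29e-05). DLL4 and IL1B lost their call without D0B, where 2037 genes were called, and 2134 were called without D0A. For D9 minus D3, D5 and D7 they were CD83 (2.90 ± 0.19, edgeR adjusted p = 8.76e-05), MTUS1 (2.85 ± 0.28, edgeR adjusted p = 2.58e-04) and RGS17 (2.77 ± 0.37, edgeR adjusted p = 0.0011) upwards. Downwards they were RGS16 (-4.26 ± 0.31, edgeR adjusted p = 8.98e-05), SOX2 (-3.55 ± 0.42, edgeR adjusted p = 9.35e-04), TRIML2 (-3.34 ± 0.37, edgeR adjusted p = 4.53e-04), POU5F1 (-3.30 ± 0.35, edgeR adjusted p = 4.44e-04) and LIN28A (-3.20 ± 0.41, edgeR adjusted p = 0.0012). RGS17 lost its call without D9B, where 96 genes were called, and 207 were called without D9A.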

How the results depend on the processing

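The count of genes called in D3, D5 and D7 stayed within 1.5 times of 6505 under every alternative but the fit without pairing, from 4369 in cells scored G1 to 8203 at an adjusted p below 0.05, with 6638 by DESeq2, 5206 when cells were ranked by LIN28A and 6498 without cells over 100000 AES CPM, an alternative chosen after seeing the data. Without pool as a block it was 2940. The same unpaired fit called 1864 genes in D3, 2077 in D5, 1412 in D7, 1031 in D9, 0 in D7 minus D5, 2 in D7 minus D3, 862 against D0, 22 in D9 against D3, D5 and D7 and 1 between the middle bins. Ranking within bins of depth gave 72 in D5 minus D3, 24 in D7 minus D5, 770 in D7 minus D3 and 2421 in D9 against D3, D5 and D7, and no filter on genes gave 518, 376, 461 and 2270. With DESeq2 size factors D5 minus D3 called 3. Leaving out each pool gave 5617 to 6396 in D3, D5 and D7 together, 2834 to 3953 in D3, 2067 to 3766 in D5, 3439 to 5751 in D7, 1184 to 2341 in D9, 0 to 4 in D5 minus D3, 1 to 721 in D7 minus D5, 0 to 509 in D7 minus D3, 2037 to 6006 against D0, 96 to 2876 for D9 against D3, D5 and D7 and 1115 to 1917 between the middle bins. A day left with 1 pool was assumed to vary like the others.

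With the top and bottom 50% of cells, AES-high cells held 14782 more UMIs and 24.7 more genes. S phase, G2M phase and the shares with SOX2, MYC and LIN28A differed by 8.41, 18.4, 9.06, -8.15 and 26.5 percentage points. Each of these measures had an adjusted p of 0.0491 (exact permutation test). Each difference was smaller in size than with 25%, where UMIs differed by 23162 and G2M phase by 29.5. All but the MYC share (adjusted p = 0.0859) already had the smallest exact p with 25%, 0.03125, and an adjusted p of 0.0573. Their exact p could fall no further, so passing 0.05 came from the adjustment over 11 measures and is not stronger evidence. The share with POU5F1 turned to -0.791 within bins of depth and -0.44 with 50%, and that with NANOG to -0.447 within bins of depth. Leaving out each pool moved the share with NANOG from -0.145 to 0.889. Of the named genes, POU5F1 turned to -0.36 within bins of depth, -0.13 with 50% and -0.77 unpaired, SPP1 to -1.52, -0.49 and -0.66, NANOG to -0.91 within bins of depth and -0.23 with 10%, TDGF1 to -0.65 within bins of depth, RARRES2 to 0.30 with 10%, and JUP, MVK and INSIG1 to 0.55, 0.06 and 0.31 in cells scored G1. The cause was not tested. Over 97 genes and their alternatives, 1929 values kept direction and call, 81 lost the call, 12 gained it and 13 turned.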
